A study of Homo sapiens with 12 samples.

Results

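The mitochondrial ribosomal protein genes were taken as every gene symbol that begins with MRPL or MRPS, followed by a number and at most one letter from A to C. The rule found 77 genes among 26372 symbols, 48 named for the large ribosomal subunit and 29 for the small one. RNA was sequenced from HCT116 cells, an established human colorectal carcinoma line, either wild type (WT) or with KDM3A knocked out (KO). KDM3A is a demethylase of histone lysine residues. Cells of each genotype were kept in normal culture (mock), in medium without serum (starved), or given fetal bovine serum after 24 h without it (refed). That makes 6 groups. The labels name 2 replicates per group, but 1 value per gene and group was available. It is recorded for replicate 1, and whether it also includes replicate 2 is not given in the sources used here. Whether the knockout line is 1 clone, and how long serum was returned, are likewise not given. Values for 3 culture states are given in the order mock, starved, refed. All values are FPKM, fragment numbers scaled to transcript length and library size. No group has a replicate spread, so each 1-against-1 difference is given without a test.

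Mitochondrial ribosomes translate the few messages of the mitochondrial genome, all of which encode membrane subunits of the respiratory chain and ATP synthase. Their RNA is made in the organelle, whereas every one of their proteins is encoded in the nucleus, made in the cytosol and imported. Some of these proteins have counterparts in bacterial ribosomes and others are found only in mitochondria. By the structure names that RefSeq gives, 44 of the 77 genes encode proteins with a bacterial counterpart and 30 encode mitochondrial additions, while 3 (MRPS24, MRPS28 and MRPS36) carry no such name. Symbols and positions do not always match. MRPS30 and MRPS18A carry small-subunit symbols, but their structure names (mL65 and mL66) place them in the large subunit. MRPS36, now named KGD4, is known as a component of the 2-oxoglutarate dehydrogenase complex.

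RefSeq promoter windows (GRCh38.p14, 250 bases before to 50 bases after the start) were found for 69 of the 77 genes. The letters of 4 short sequences were searched on both strands, with exact matches only. CCGGAAG is the core bound by ETS factors such as GABPA, AAGATGGC is a YY1 sequence, and CACGTG is the E-box bound by MYC. The last was the palindromic consensus of NRF1. None of these contains another, and a gene was counted when any of its windows held the letters. The windows below belong to the 5 genes that passed the test for starvation on both scales described later, and to MRPS6, the gene with the largest difference between genotypes. Capitals mark the searched sequences.
MRPL49, chr11:65121933-65122232, + strand: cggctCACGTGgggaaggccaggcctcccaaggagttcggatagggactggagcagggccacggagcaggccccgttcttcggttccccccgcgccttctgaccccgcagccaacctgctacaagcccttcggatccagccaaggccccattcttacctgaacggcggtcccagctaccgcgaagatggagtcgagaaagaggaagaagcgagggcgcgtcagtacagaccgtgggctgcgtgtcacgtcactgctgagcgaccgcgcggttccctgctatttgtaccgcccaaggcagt
MRPL20, chr1:1407244-1407543, - strand: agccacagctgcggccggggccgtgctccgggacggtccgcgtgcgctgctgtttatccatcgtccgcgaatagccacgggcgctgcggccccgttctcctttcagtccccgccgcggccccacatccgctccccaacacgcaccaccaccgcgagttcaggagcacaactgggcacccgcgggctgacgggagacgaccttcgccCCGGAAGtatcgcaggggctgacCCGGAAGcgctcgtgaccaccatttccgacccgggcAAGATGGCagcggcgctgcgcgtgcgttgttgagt
MRPS25, chr3:15065266-15065565, - strand: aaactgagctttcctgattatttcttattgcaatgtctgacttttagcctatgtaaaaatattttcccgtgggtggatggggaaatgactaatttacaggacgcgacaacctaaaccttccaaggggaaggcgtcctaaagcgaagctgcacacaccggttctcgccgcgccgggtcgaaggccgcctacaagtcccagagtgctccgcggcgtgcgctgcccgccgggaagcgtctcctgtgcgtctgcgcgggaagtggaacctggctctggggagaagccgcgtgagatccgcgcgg
MRPL42, chr12:93467264-93467563, + strand: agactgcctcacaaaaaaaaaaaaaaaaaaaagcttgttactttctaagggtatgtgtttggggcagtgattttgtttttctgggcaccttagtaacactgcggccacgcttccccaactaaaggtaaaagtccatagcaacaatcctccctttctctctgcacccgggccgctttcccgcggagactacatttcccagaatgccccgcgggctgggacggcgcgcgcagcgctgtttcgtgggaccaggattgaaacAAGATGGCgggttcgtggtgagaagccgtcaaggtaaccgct
MRPL39, chr21:25607432-25607731, - strand: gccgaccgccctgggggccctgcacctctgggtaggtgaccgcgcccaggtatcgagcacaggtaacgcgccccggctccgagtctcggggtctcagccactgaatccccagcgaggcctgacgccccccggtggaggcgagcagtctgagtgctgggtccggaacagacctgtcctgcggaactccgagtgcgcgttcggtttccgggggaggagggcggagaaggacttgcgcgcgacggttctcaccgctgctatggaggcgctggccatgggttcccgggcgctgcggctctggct
MRPS6, chr21:34073328-34073627, + strand: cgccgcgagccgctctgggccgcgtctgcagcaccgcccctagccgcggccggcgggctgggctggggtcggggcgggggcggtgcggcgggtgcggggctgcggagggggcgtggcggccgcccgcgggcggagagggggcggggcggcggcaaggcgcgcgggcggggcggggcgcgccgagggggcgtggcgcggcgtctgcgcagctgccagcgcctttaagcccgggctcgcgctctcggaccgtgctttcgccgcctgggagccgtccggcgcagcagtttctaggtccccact

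MRPL20 held the ETS core at 44 and at 21 bases before the start and the YY1 sequence beginning 15 bases after it. MRPL42, whose level moved the other way in starvation, held the YY1 sequence beginning 8 bases after the start. MRPL49 held an E-box near the far end of the window shown, which is the first of 2 listed for the gene, and the YY1 sequence in the window not shown. The windows shown for MRPS25, MRPL39 and MRPS6 held none of these letters. Over the family, the ETS core was in 29 of 69 genes (42%), against 12.2% of the 27305 genes with a promoter window. It was in 25.1% of the 5002 of those genes that reached 10 FPKM in these cells under the same symbol. The YY1 sequence was in 21 (30.4%), against 3.52% of all genes and 7.98% of the expressed ones. Both together were in 8 members (11.6%), against 0.762% and 2.5%. The E-box was in 10 members (14.5%), against 8.77% and 13.3%, and the NRF1 sequence in 1 member, MRPL17 (1.45%), against 1.52% and 2.86%. Another gene started on the opposite strand within 1000 bases of 26 members (37.7%), against 20.1% and 30.4%. MRPL46 and MRPS11, members named for different subunits, form such a pair and start 320 bases apart.

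All 77 genes were at 1 FPKM or more in every group, so none entered the tests through a single high group. MRPL51, a mitochondrial addition to the large subunit, was highest, with 198, 141 and 127 FPKM in WT mock, starved and refed cells and 206, 185 and 178 FPKM in the corresponding KO cells. MRPL12, the stalk protein that recruits translation factors, followed with 110, 149 and 135 FPKM in WT and 146, 177 and 186 FPKM in KO. MRPS34, a mitochondrial addition to the small subunit, had 117, 115 and 99.8 FPKM in WT and 144, 148 and 148 FPKM in KO. These genes stood at the top of the family's range. Averaged over the 6 groups, 34 members were at 50 FPKM or more, 40 between 10 and 50, and 3 under 10 (MRPL23, MRPL30 and MRPL19, at 9.57, 9.30 and 4.70 FPKM). Neighbouring genes in the middle of the range had overlapping ranges over groups. Their order was not tested, because no group has a replicate spread.

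**Figure D1:**
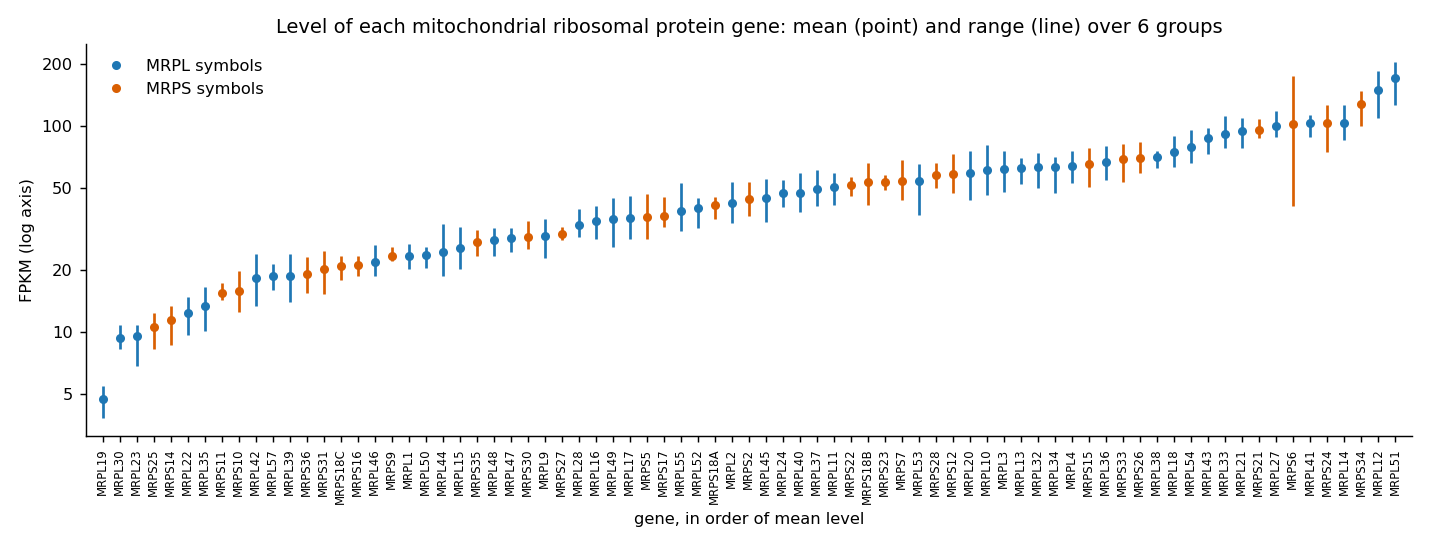
Mean level (points) and range over the 6 groups (lines) of each of the 77 genes, in FPKM on a log axis, with MRPL symbols in blue and MRPS symbols in orange. Means run from 4.70 FPKM for MRPL19 to 172 FPKM for MRPL51, and the line of MRPS6 is far longer than any other.

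The family median was 40.3, 38.5 and 37.0 FPKM in WT mock, starved and refed cells, and 48.1, 49.3 and 48.9 FPKM in KO cells. Every KO median was above every WT median. The members' share of the summed FPKM, without small RNA genes, stayed between 0.709% and 0.749% in all 6 groups. For 76 of 77 genes the highest group was less than 2-fold above the lowest, with ratios from 1.17 (MRPS27) to 1.80 (MRPL44). The exception was MRPS6, at 4.27-fold.

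The series has features that bear on these values. KDM3A itself was at 41.3, 17.8 and 19.8 FPKM in WT mock, starved and refed cells and at 3.15, 3.01 and 3.59 FPKM in KO cells. The WT mock value stood apart: 15 of 16 endothelial marker genes reached 1 FPKM there and were at least 2-fold above every other group. Their sum without EGFL7, which was present in all groups, was 224 FPKM in WT mock and 4.85 to 5.99 FPKM elsewhere. Most of the sum elsewhere was ESAM, also present in all groups, at 3.69 to 5.19 FPKM outside WT mock. CDH5, TEK, ERG and EMCN were listed at 0 in KO mock. Leaving out small RNA genes, 87 symbols exceeded the next group by 4-fold or more in WT mock, and 0 of these were members. The share of endothelial RNA in the WT mock values of the family was not tested. Summed FPKM without small RNA genes ran from 444289 (WT refed) to 593584 (KO refed), so each comparison is also given relative to the median of the 13456 features that reached 1 FPKM in any group, and after median-ratio rescaling. Epithelial markers were present in every group, EPCAM at 145 to 203 FPKM, except LGALS4, which was below 1 FPKM throughout.

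The first comparison asked how the family differed in cells without KDM3A. Most members were slightly higher in KO than in WT cells, and more of them than of all genes. On the deposited scale, 68 members were higher in KO in mock, 73 in starved and 77 in refed cells, against 60.1%, 76.9% and 79.8% of all features. Their median log2 differences were 0.17, 0.33 and 0.37, and those of all features were 0.07, 0.19 and 0.22. Genes at 10 FPKM or more, closer to the members in level, had medians of 0.11, 0.24 and 0.30. Relative to all features the members' medians were therefore 0.10, 0.14 and 0.14, and 56, 64 and 64 members lay above the all-feature median.

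The direction held across culture states for most of the family. On the deposited scale 67 members were higher in KO in all 3 states, against 54.3% of all features. Relative to the all-feature median, 50 were higher in all 3 states (32.8% of all features) and 21 were mixed. The other 6 were lower in all 3 states (32.7% of all features): MRPL28, MRPL57, MRPS9, MRPS11, MRPS22 and MRPS25. The medians relative to all features were similar for large-subunit symbols (0.09, 0.18 and 0.16) and small-subunit symbols (0.12, 0.12 and 0.12). Proteins with a bacterial counterpart (0.07, 0.15 and 0.15) and mitochondrial additions (0.11, 0.14 and 0.13) were also close. Among other gene groups, 79 cytosolic ribosomal protein genes had relative medians of 0.00, 0.21 and 0.28, and 75 nuclear-encoded respiratory chain genes had 0.03, 0.13 and 0.17. No difference between these groups was tested.

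**Figure D2:**
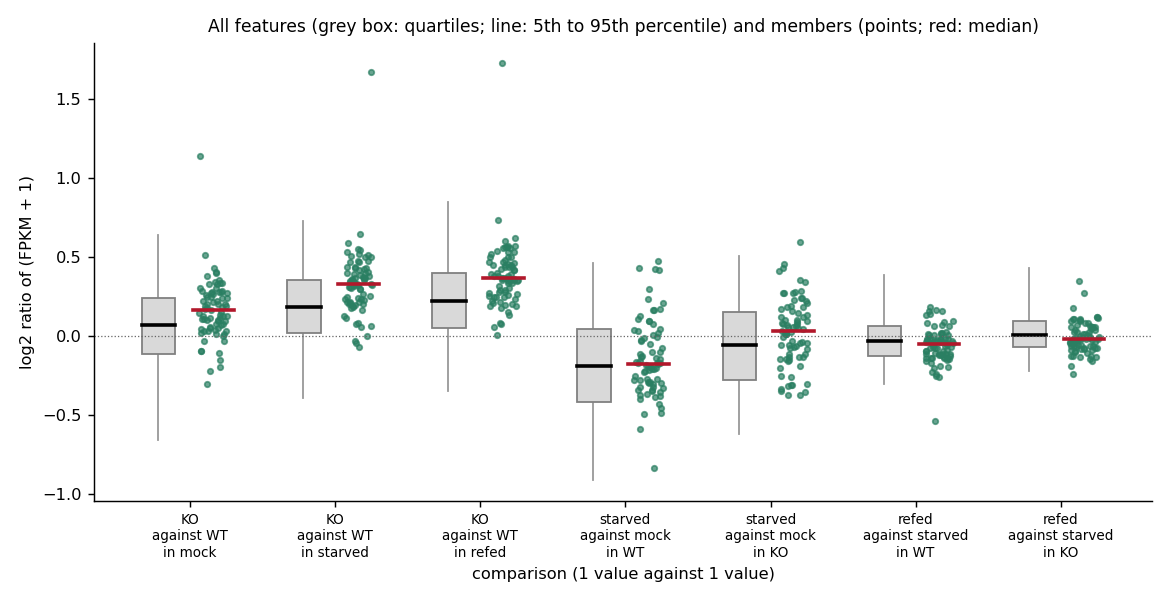
Log2 ratio of (FPKM + 1) in the 7 comparisons of 1 value with 1 value. Grey boxes show the quartiles of all 13456 features, thin lines their 5th to 95th percentile and black bars their median, and green points show the 77 members with their median in red. The members' median is above that of all features in each KO against WT comparison, by 0.10 in mock and 0.14 in starved and in refed cells.

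Averaged over culture states with limma, 40 of 77 members rose in KO (51.9%) and 0 fell, while 28.7% of all features rose and 4.58% fell. At an unadjusted p under 0.05, 57 members passed. The share of all features at that threshold is not given here, so this count has no background. A fit limited to features that reached 10 FPKM in any group called 48 members risen (62.3% of 77) and 0 fallen. Of these features, which are closer to the members in level, 42.9% rose and 4.59% fell. Either fit has 1 value per group, so its error is the unevenness of the difference over states. An adjusted p here does not measure replicate error. With median-ratio rescaling the counts were 14 risen and 2 fallen members, while 12.0% of all features rose and 11.2% fell. Upper-quartile rescaling gave 9 and 2 (10.8% and 12.7% of all features). The 14 had also risen on the deposited scale: MRPL2, MRPL3, MRPL9, MRPL15, MRPL45, MRPL53 and MRPL54, and MRPS6, MRPS7, MRPS15, MRPS18B, MRPS24, MRPS31 and MRPS33. The 40 calls became 55 (71.4% of members) without the WT mock or the KO mock value, while the share of all features that rose was 37.4% and 37.5%. They became 0 without any one of the starved or refed values, where at most 0.119% of all features rose. Leaving out either value of a state takes that state out of the KO difference. The 2 fits for a state thus give the same difference, with 1 residual degree of freedom, and are not separate checks.

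MRPS6, a small-subunit protein with a bacterial counterpart, showed by far the largest difference. Its FPKM was 78.8, 43.7 and 40.9 in WT mock, starved and refed cells and 175, 142 and 138 in KO. All 3 KO values were above all 3 WT values. MRPS6 rose in KO by 1.51 on the log2 scale (SE 0.14, limma adjusted p = 0.0064), with folds of 2.21, 3.19 and 3.31 in mock, starved and refed cells. It was the only member at least 2-fold higher in KO, in each state. In mock cells 2.27% of all features were at least 2-fold higher in KO, 2.59% in starved and 3.41% in refed cells.

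The MRPS6 value is uncertain as a measure of one gene. SLC5A3, which encodes a myo-inositol transporter, has the same RefSeq start and promoter window as MRPS6, printed above, and the genes overlap. SLC5A3 had 6.89, 2.69 and 2.03 FPKM in WT against 15.4, 14.1 and 11.8 FPKM in KO. It also rose, by 1.72 on the log2 scale (SE 0.22, limma adjusted p = 0.012). How the fragments of the shared region were assigned to each gene is not given in the sources used here.

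The other members that rose most reached at most 1.67-fold in any state. MRPL3, a core protein of the large subunit with a bacterial counterpart, had 54.8, 47.7 and 49.9 FPKM in WT against 71.5, 75.4 and 73.1 FPKM in KO, and its averaged log2 difference was 0.52 (SE 0.08, adjusted p = 0.015 on the deposited scale and 0.023 after rescaling, limma). MRPL53, a mitochondrial addition, had 51.5, 44.4 and 37.0 FPKM in WT against 65.4, 63.4 and 62.4 FPKM in KO, and its log2 difference was 0.53 (SE 0.10). MRPS7, which binds the small ribosomal RNA in the subunit's head, had 43.8, 45.2 and 44.9 FPKM in WT against 55.3, 65.7 and 68.5 FPKM in KO. MRPL44, an addition with a ribonuclease III-like fold, had 23.2, 18.8 and 18.6 FPKM in WT against 33.6, 25.7 and 25.8 FPKM in KO. All 3 KO values were above all 3 WT values for MRPL3, MRPL53, MRPS7 and MRPL44. MRPL44 rose by 0.46 on the deposited scale (SE 0.06, limma adjusted p = 0.011) and did not pass after rescaling (adjusted p = 0.053). MRPS33 had 66.5, 54.3 and 53.5 FPKM in WT and 78.0, 82.3 and 79.9 FPKM in KO. At least 1.5-fold higher in KO were MRPS6 alone in mock (5.92% of all features), MRPL3, MRPS6 and MRPS33 in starved (8.45%), and MRPL53, MRPS6, MRPS7 and MRPS24 in refed cells (11.6%). After rescaling only MRPS6 remained in each state. On the deposited scale 0 members were 1.5-fold lower in KO, against 5.80%, 3.11% and 2.80% of all features.

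At the other end were genes whose KO and WT levels overlapped. MRPS9, a small-subunit protein with a bacterial counterpart, had 25.8, 23.5 and 22.1 FPKM in WT against 24.1, 22.8 and 22.2 FPKM in KO. MRPL28 had 39.6, 31.9 and 28.9 FPKM in WT against 36.7, 30.4 and 30.6 FPKM in KO. These genes had log2 differences of -0.04 and -0.03 on the deposited scale (limma adjusted p = 0.58 and 0.72) and of -0.23 for both after rescaling, where both fell (adjusted p = 0.032 and 0.038). MRPL33 was lower in KO in mock (112 FPKM in WT against 90.6 FPKM in KO) and higher in starved (79.1 against 92.1 FPKM) and refed cells (78.1 against 95.9 FPKM). The paralogs MRPS18A, MRPS18B and MRPS18C, which are related to the same bacterial protein, had averaged log2 differences of 0.23, 0.43 and 0.25, and only MRPS18B passed the test (limma adjusted p = 0.017).

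**Figure D3:**
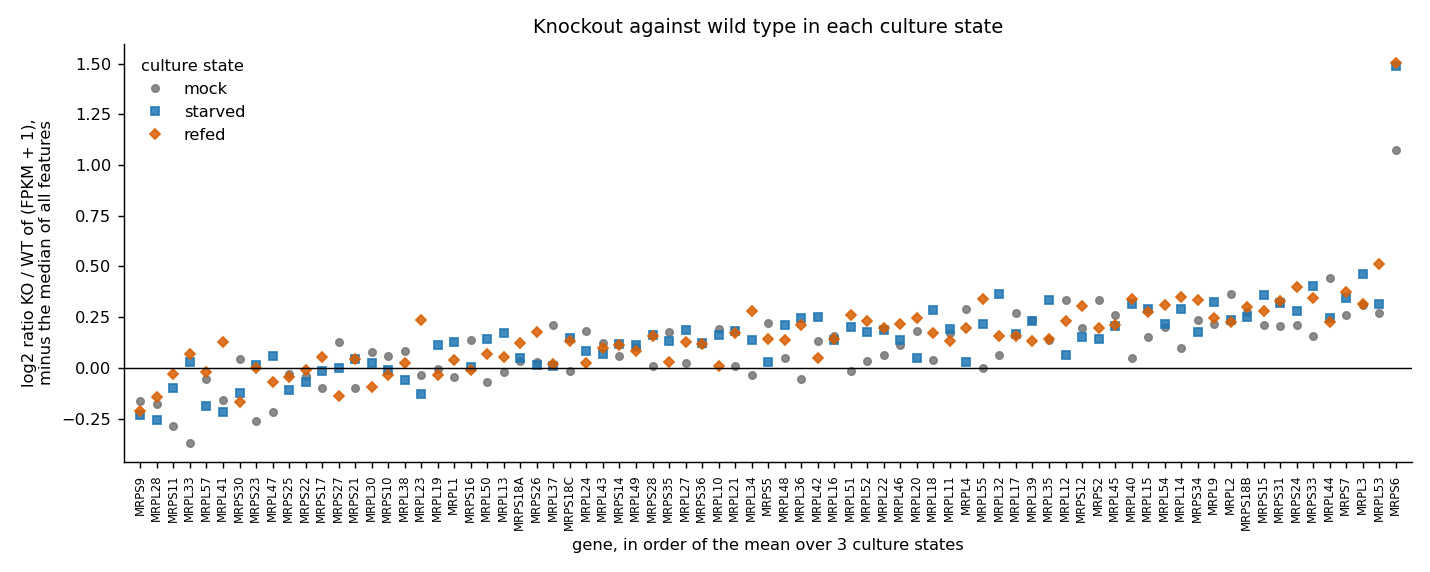
Log2 ratio of KO to WT, minus the median of all features, for each of the 77 genes in mock (grey circles), starved (blue squares) and refed cells (orange diamonds), in order of the mean over states. Most points lie above 0, MRPS6 lies far above the rest in all 3 states, and MRPS9 and MRPL28 are below 0 in all 3.

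Markers of the cell line differed by genotype as well. Of 9 measured colorectal epithelial markers, 8 rose in KO and 0 fell on the deposited scale (28.7% and 4.58% of all features). After rescaling 6 rose and 0 fell (12.0% and 11.2% of all features). KRT8 had 1011, 1002 and 1148 FPKM in WT against 2425, 2316 and 2776 FPKM in KO. Their summed level was 2361 to 2826 FPKM in WT and 5119 to 6319 FPKM in KO. Whether this difference between the lines has a part in the members' values was not tested.

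The second comparison asked what happened when serum was withdrawn. As a whole the family followed the median of all genes, while single members differed in opposite directions, alike in both genotypes. The members' median log2 difference was -0.18 in WT and 0.03 in KO, against -0.19 and -0.06 for all features, which left 0.01 and 0.09 relative to all. On the deposited scale 57 members were lower in starved WT cells and 33 in starved KO cells (70.1% and 57.2% of all features). In both genotypes 19 were higher and 32 lower (24.7% and 52.9% of all features). Relative to all features these counts were 36 and 22 (39.9% and 39.9%). Across the 77 genes the responses of WT and KO had a Pearson r of 0.77 and a Spearman rho of 0.77. This describes genes that share libraries within each genotype. For features at 10 FPKM or more, r was 0.34 and rho 0.78.

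**Figure D4:**
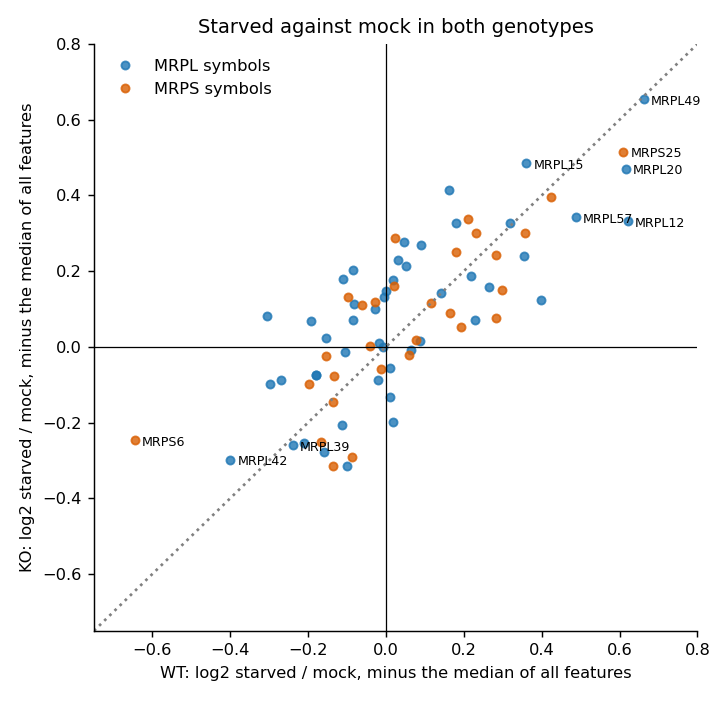
Log2 ratio of starved to mock, minus the median of all features, in WT (x axis) and KO cells (y axis) for the 77 genes, with MRPL symbols in blue and MRPS symbols in orange and the dotted line marking equality. MRPL49, MRPS25 and MRPL20 are far up in both genotypes, MRPL42 and MRPL39 are down in both, and r over the 77 genes is 0.77.

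Averaged over genotypes, 3 members rose in starvation and 7 fell on the deposited scale (3.90% and 9.09%), while 5.83% of all features rose and 19.4% fell. At an unadjusted p under 0.05, 23 members passed, again without a share of all features to set beside it. With median-ratio rescaling the counts were 16 risen and 2 fallen members (15.0% and 14.9% of all features), and with upper-quartile rescaling 16 and 1 (14.6% and 15.3%). At least 1.5-fold lower in starved WT cells were MRPL42 and MRPS6 (13.9% of all features) and in starved KO cells 0 members (5.96%). At least 1.5-fold higher were 0 members in WT (3.14%) and MRPL49 in KO (3.49%). The 3 that rose and 2 that fell on both scales are those whose promoters are printed above. Leaving out the KO mock value gave 2 risen and 12 fallen members (2.6% and 15.6%), while 4.71% of all features rose and 26.6% fell. Leaving out any other single value gave 0 of both, where at most 0.0372% of all features rose and 0.134% fell. These fits, with 1 residual degree of freedom, called almost no features, so the 0 says nothing about the members in particular.

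MRPL49, a mitochondrial addition to the large subunit, rose most. Its FPKM went from 25.9 in mock to 36.3 in starved WT cells and from 29.3 to 44.8 in KO cells. MRPL49 rose by 0.54 on the log2 scale (SE 0.08, limma adjusted p = 0.020) and by 0.68 after rescaling (adjusted p = 0.014). MRPS25, an addition to the small subunit, went from 8.25 to 11.4 FPKM in WT and from 8.50 to 12.1 FPKM in KO, a rise of 0.44 (SE 0.07, adjusted p = 0.023, limma). MRPL20, which has a bacterial counterpart, went from 43.5 to 58.9 FPKM in WT and from 51.9 to 69.5 FPKM in KO, a rise of 0.42 (SE 0.10, adjusted p = 0.041, limma). For each of these genes both starved values were above both mock values. MRPL12 went from 110 to 149 FPKM in WT and from 146 to 177 FPKM in KO, and passed only after rescaling (log2 0.50, limma adjusted p = 0.026, against 0.058 on the deposited scale). MRPL15 and MRPL57 also passed only after rescaling, with log2 differences of 0.44 and 0.43.

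MRPL42, an addition to the large subunit, went from 20.6 to 13.3 FPKM in WT and from 23.8 to 18.4 FPKM in KO. It fell by 0.47 on the log2 scale (SE 0.09, limma adjusted p = 0.028) and by 0.34 after rescaling (adjusted p = 0.034). MRPL39, an addition related in fold to threonyl-tRNA synthetase, went from 19.1 to 14.0 FPKM in WT and from 23.9 to 19.0 FPKM in KO, a log2 difference of -0.37 (SE 0.07, adjusted p = 0.030, limma). For both genes the starved values were below both mock values, by a narrow margin for MRPL39 (19.0 FPKM in KO starved and 19.1 FPKM in WT mock). MRPL10, MRPL17, MRPL44, MRPS10 and MRPS30 fell on the deposited scale by 0.33 to 0.35 and did not pass after rescaling. The stalk partners MRPL10 and MRPL12 thus had values in opposite directions: MRPL10, which anchors MRPL12 to the ribosome, went from 67.3 to 50.9 FPKM in WT and from 80.7 to 64.9 FPKM in KO. MRPS6 went from 78.8 to 43.7 FPKM in WT and from 175 to 142 FPKM in KO, a log2 difference of -0.57 (SE 0.17) that did not pass (limma adjusted p = 0.072).

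The divergent pair MRPL46 and MRPS11 did not share a pattern by level. MRPL46 had 18.6, 20.5 and 19.2 FPKM in WT against 21.3, 25.9 and 26.4 FPKM in KO. MRPS11 had 17.3, 14.3 and 14.5 FPKM in WT against 14.7, 15.3 and 16.7 FPKM in KO. MRPL46 was higher in KO in every state, and MRPS11 was lower in KO only in mock. Members with the ETS core had relative medians in starvation of 0.02 in WT and 0.12 in KO, and those without it 0.00 and 0.03. Members with the YY1 sequence had -0.03 and 0.10, and those without it 0.02 and 0.08. Members with an opposite-strand start within 1000 bases had 0.12 and 0.15, and those without -0.02 and 0.02. For KO against WT in mock, starved and refed cells, members with the ETS core had 0.05, 0.14 and 0.14 (0.12, 0.14 and 0.14 without). Those with the YY1 sequence had 0.08, 0.15 and 0.20 (0.11, 0.13 and 0.13 without). None of these splits was tested.

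**Figure D5:**
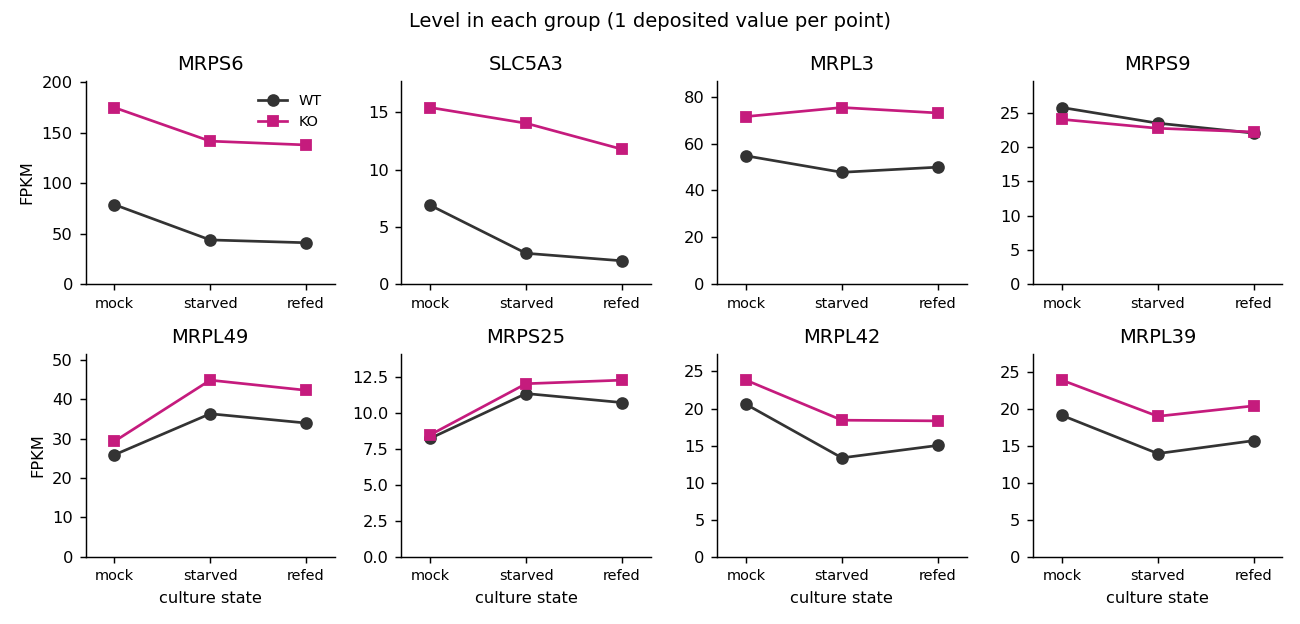
FPKM of 7 members and of SLC5A3 in mock, starved and refed cells, in WT (dark circles) and KO (magenta squares), with 1 deposited value per point and each axis starting at 0. MRPS6 and SLC5A3 are higher in KO in all states, MRPS9 is nearly level, MRPL49 and MRPS25 are higher and MRPL42 and MRPL39 lower in starved than in mock cells of both genotypes.

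The third comparison asked what followed when serum was returned. The family differed little. In refed against starved cells 0 members rose and 0 fell with limma, also at an unadjusted p under 0.05 (0), and 0.773% of all features rose and 0.0520% fell. After median-ratio rescaling there were likewise 0 calls (0.951% and 0.0743% of all features), with 6 members at an unadjusted p under 0.05. The shares of all features at an unadjusted p are not given here, so these counts have no background. The members' median log2 difference was -0.05 in WT and -0.02 in KO, against -0.03 and 0.01 for all features. The SD over members was 0.11 in WT and 0.10 in KO, where from mock to starved it had been 0.24 and 0.21. The quartiles of all features also lay closer together. They were -0.12 and 0.06 in WT and -0.07 and 0.10 in KO. From mock to starved they had been -0.42 and 0.05 in WT and -0.28 and 0.15 in KO. Between refed and starved cells 0 members were 1.5-fold higher or lower in WT (3.04% and 1.27% of all features) or in KO (3.50% and 0.795%).

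The members named for starvation stayed closer to their starved than to their mock level. MRPL49 was at 34.0 FPKM in refed WT and 42.3 FPKM in refed KO cells, and MRPS25 at 10.7 and 12.3 FPKM, all above the mock values. MRPL42 was at 15.0 and 18.3 FPKM and MRPL39 at 15.7 and 20.4 FPKM, below the mock value of the same genotype. MRPL12 was at 135 and 186 FPKM. Refed against mock, the members' median relative to all features was -0.02 in WT and 0.06 in KO. The largest differences from starved to refed cells, none of which passed, were those of MRPL55 (31.0 to 35.4 FPKM in WT, 41.2 to 52.8 FPKM in KO) and MRPS17 (33.1 to 37.3 and 37.3 to 45.4 FPKM) upward. Downward, MRPL23, which sits at the exit of the peptide tunnel, went from 10.3 to 6.81 FPKM in WT and from 10.8 to 9.76 FPKM in KO. MRPS14 went from 10.2 to 8.58 FPKM in WT and from 12.8 to 11.1 FPKM in KO.

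The differences between genotypes in these responses cannot be tested with 1 value per group. The starvation response relative to all features differed between KO and WT by a median of 0.02 on the log2 scale over members, and the serum response by 0.00448, a value whose sign changes with the scaling.

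Other genes of mitochondrial translation were read from lists of known factors. The counts of all lists that follow stand beside those of all features on the deposited scale. Of all features, 28.7% rose in KO and 4.58% fell, and in starvation 5.83% rose and 19.4% fell. Among 6 measured ribosomal proteins with other symbols, 3 rose in KO (AURKAIP1, ICT1 and PTCD3) and 0 fell, and 0 moved in starvation. ICT1, a large-subunit protein that can release stalled chains, had 50.4, 41.4 and 43.7 FPKM in WT against 66.1, 55.4 and 60.2 FPKM in KO, a rise of 0.42 (SE 0.06, limma adjusted p = 0.015). Of 16 translation factors, 6 rose in KO and 0 fell, and 1 rose and 2 fell in starvation. MTIF2, the initiation factor that brings the first tRNA, had 12.1, 11.3 and 10.2 FPKM in WT against 17.2, 16.2 and 15.3 FPKM in KO, a rise of 0.50 (SE 0.05, limma adjusted p = 0.0085). PDF, the deformylase that acts on new mitochondrial proteins, went from 11.8 to 19.2 FPKM in starved WT cells and from 12.1 to 21.8 FPKM in KO, a rise of 0.73 (SE 0.10, limma adjusted p = 0.019). MTIF3 and C12orf65 fell in starvation.

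Of 20 mitochondrial aminoacyl-tRNA synthetase and amidotransferase genes, 11 rose in KO and 1 fell, FARS2, the enzyme that charges phenylalanine tRNA. FARS2 had 4.72, 5.49 and 4.86 FPKM in WT against 2.99, 3.40 and 3.97 FPKM in KO, a log2 difference of -0.44 (SE 0.08, limma adjusted p = 0.024). IARS2 was the 1 gene of the list that fell in starvation, from 40.1 to 28.1 FPKM in WT and from 49.5 to 37.3 FPKM in KO. Of 22 assembly and ribosomal RNA factors, 10 rose in KO and 0 fell, and 4 rose and 2 fell in starvation. TFB1M, which methylates the small ribosomal RNA, went from 12.4 to 6.97 FPKM in WT and from 10.9 to 7.41 FPKM in KO, and fell by 0.63 (SE 0.09, limma adjusted p = 0.019). NOA1, a GTPase of small-subunit assembly, rose in KO by 0.48 and fell in starvation by 0.42. Of 13 factors of mitochondrial genome expression, 2 rose in KO and 0 fell, and 1 rose (C10orf2, the Twinkle helicase) and 1 fell (POLRMT, the mitochondrial RNA polymerase) in starvation. After rescaling, the numbers that rose and fell in KO were 1 and 0 for proteins with other symbols, 4 and 0 for translation factors, 3 and 1 for synthetases, 4 and 2 for assembly factors, and 0 and 1 for genome expression. In starvation the rescaled numbers were 0 and 0, 4 and 1, 2 and 1, 7 and 2, and 5 and 0 in the same order. Of all features after rescaling, 12.0% rose and 11.2% fell in KO, and 15.0% rose and 14.9% fell in starvation.

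Of 7 measured regulators, 4 rose in KO and 0 fell, and 1, PPRC1, rose in starvation. After rescaling 1 rose in KO (12.0% of all features). PPRC1, a coactivator of genes for mitochondrial proteins, had 9.22, 14.8 and 22.9 FPKM in WT against 13.3, 19.5 and 28.3 FPKM in KO. YY1 had 24.0, 21.8 and 19.4 FPKM in WT against 32.2, 29.8 and 28.6 FPKM in KO, a rise of 0.46 (SE 0.06, limma adjusted p = 0.012). MYC had 77.9, 117 and 146 FPKM in WT against 122, 154 and 139 FPKM in KO, and did not pass in any averaged comparison. PPARGC1A and PPARGC1B were below 1 FPKM in every group.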

How the data were processed

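Poly(A) RNA was sequenced, and the submitters' processing notes name FastQC, cutadapt, TopHat2 and the hg19 build. The program that computed expression is not given in the sources used here. The authors deposited FPKM, 1 value per gene and group, for 6 of the 12 labelled samples. Total counts are not in these values, so absolute depth is unknown and no counting interval was computed. The members, gene lists and comparisons were chosen with earlier results of these data known.

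From the deposited FPKM, log2(FPKM + 1) was taken, which understates changes of low genes. Tests used limma 3.58.1 (R 4.3.3) on the 13456 features that reached 1 FPKM in any group, with genotype and culture state as additive terms and 2 residual degrees of freedom from their interaction. p-values were adjusted by Benjamini-Hochberg over all features, with a threshold of 0.05. They measure evenness over states or genotypes. Named genes were those at the extremes of each averaged comparison (6 per direction, reaching 5 FPKM in any group), any at least 2-fold different, the 3 highest and 3 lowest by level, the MRPS18 paralogs, MRPL10, MRPL12 and MRPS30, up to 4 per other list, and KDM3A and MYC. MRPS24, MRPL46, MRPS11, YY1 and SLC5A3, and the members listed by count, were named after their values were seen. Of the members, 34 have a named pseudogene in GENCODE v29 that could share their reads. In KO against WT their medians relative to all features were 0.14, 0.19 and 0.14. Those of the 43 members without one were 0.04, 0.14 and 0.14. Averaged over states, 21 of the 34 and 19 of the 43 rose in KO (28.7% of all features). Whether shared reads have a part in this was not tested. Alternatives were 2 rescalings, another pseudocount, other filters and leaving out each value.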

Additional observations from a re-analysis of the deposited data

Results flagged for a closer look

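MRPL41, a mitochondrial addition to the large subunit, moved in opposite directions in the 2 genotypes when serum was returned. Relative to the median of all features, its refed against starved log2 difference was -0.18 in WT (102 to 88.8 FPKM) and 0.17 in KO (100.2 to 113 FPKM). The difference between genotypes was not tested, since each group has 1 value.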

How the results depend on the processing

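No paired analysis was possible because only 1 value per group was available, so replicate numbers could not serve as a block. The count of members that rose in KO was 40 (28.7% of all features). It became 14 with median-ratio rescaling (12.0%), 9 with upper-quartile rescaling (10.8%) and 7 with no filter on low values (2.81%). When the fit kept only features that reached 10 FPKM in any group, it became 48 (42.9% of these features). After either rescaling 2 fell (11.2% and 12.7% of all features). In starvation 16 rose after either rescaling (15.0% and 14.6% of all features). After median-ratio rescaling 2 fell (14.9%), and after upper-quartile rescaling 1 fell (15.3%). With no filter 0 members rose and 0 fell, and 0% of all features rose or fell. With 1 value left out, and 1 residual degree of freedom, members that rose in KO ranged from 0 to 55, and in starvation from 0 to 2 rose and from 0 to 12 fell. The shares of all features in the fits with 1 value left out are given in the sections above. The cause of these shifts in count was not tested. A filter-free fit adjusts over more features, and whether this has a part was not tested either. Members at least 1.5-fold different after either rescaling numbered 1 in KO against WT in starved cells, 1 in refed cells and 5 in starved against mock WT cells. With a pseudocount of 0.1 there was 1 in refed against starved WT cells. The shares of all features at 1.5-fold under these settings are not given here, so these counts have no background. With no filter the median of all features is at or near 0, so members' medians became 0.29 and -0.077 for KO and starvation averaged, 0.33 and 0.37 for KO in starved and refed cells, -0.18 for starved WT cells, and 0.14 for the difference in starvation response. The genotype difference in serum response changed sign to -0.00280 and -0.00855 after the rescalings, -0.000941 with the smaller pseudocount and -0.0194 at 10 FPKM or more. Under the settings that kept all 6 values, named genes lost a call 40 times and gained one 6 times for KO, and lost one 18 times and gained one 18 times for starvation. The sign changed for 10 named genes in each of these comparisons and for 6 in refeeding, none of them called on the deposited scale or under the setting that changed the sign. MRPL19 is absent at 10 FPKM or more. Depth is unknown, so no limit from counting can be given.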
